A study of Mus musculus with 4 samples.

Results

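The replication-dependent histone genes were taken as every gene on the mouse array whose name begins with Hist1h, Hist2h, Hist3h or Hist4h. The rule found 47 genes, measured by 51 of the 39429 non-control probes, out of 31829 gene names on the array, and the probe with the highest mean signal stood for a gene that had 2. They comprised 6 genes of the linker histone H1, 14 of H2A, 11 of H2B, 8 of H3 and 8 of H4. RNA came from tumour-derived breast cancer cells of MMTV-Neu mice, in which the mouse mammary tumour virus promoter, active mainly in mammary epithelium, drives the Neu (Her2, Erbb2) oncogene. One group of 2 samples was Pak1-/- and the other group of 2 was Pak1+/+, so that every sample carried the Neu transgene and the groups differed by label in the p21-activated kinase gene Pak1. All cells were grown in low calcium medium with horse serum, kept without serum for 3 h and then given EGF for 15 min. The series design takes each sample of a group from its own tumour, while the study's methods speak of tumour-derived cell lines; p-values measure the spread between these samples only. The comparison asks which histone transcripts differ between the samples labelled Pak1-/- and Pak1+/+.

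Replication-dependent histones package newly made DNA. H2A, H2B, H3 and H4 form the nucleosome core and H1 binds the linker DNA between nucleosomes, and in most dividing cells their mRNAs are made during S phase and destroyed when replication stops. These mRNAs normally end in a short hairpin, the stem-loop, which is bound by the stem-loop binding protein (Slbp) and cut downstream with the help of the U7 small nuclear ribonucleoprotein, instead of in a poly(A) tail. Some of the genes can also give longer, polyadenylated transcripts that run past the stem-loop, and such transcripts are known from differentiating and non-dividing cells. The genes lie in clusters of close copies, so a probe in the coding sequence can bind the RNA of several of them.

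Values are log2 intensities after background correction and quantile normalization. A gene was called higher or lower when its adjusted p from limma, a linear model that shares the estimate of the spread across all probes, was under 0.05 over the 27229 probes tested. The median spot intensity was 322 to 331 on the 4 arrays over a median local background of 39 to 42, and 62.2% to 70.4% of the probes were well above background. The Pak1 probe read 12.21 and 12.25 in Pak1-/- and 12.04 and 12.04 in Pak1+/+, a difference of 0.19 (SE 0.068, adjusted p = 0.070 in limma), so it was not lower in the samples labelled Pak1-/- and the directions given here rest on the labels. Both Pak1-/- arrays lay beside each other on the slide, as did both Pak1+/+ arrays, so slide position and genotype cannot be told apart. Of the luminal epithelial markers, Krt8, Krt18, Epcam and Cdh1 were well above background on all 4 arrays. Krt8, Krt18 and Cdh1 were higher in Pak1-/-, while Krt19 (-0.64) and Epcam (-0.23) did not pass. Over all probes tested, 23.3% were higher and 28.6% lower. All 3 basal epithelial markers (Krt5, Krt14 and Trp63) were higher in Pak1-/-, and their summed intensity was 75790 and 72930 in Pak1-/- against 18500 and 17910 in Pak1+/+. Of the 4 leukocyte markers tested, Ptprc was lower and the others did not pass; the summed intensity of the list was 72700 and 50260 against 46220 and 41190. Of the fibroblast markers, 1 of the 3 tested (Col1a1) was higher and the others did not pass; the summed intensity was 1209 and 1009 against 852 and 830, and the fibroblast gene Dcn and the adipocyte gene Adipoq were dim on all 4 arrays. The 3 endothelial markers did not pass the test. Whether these differences in cell markers have a part in the histone results was not tested.

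The probe sequences place some probes relative to the stem-loop, the element that sets the usual end of these mRNAs. A search of the member probes for hairpins with a stem of 6 bases and a loop of 4 found the letters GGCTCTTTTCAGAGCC in full in 4 of them. Allowing 2 mismatches, or at least 11 of the 16 letters at an end of the probe, 7 of the 51 member probes (13.7%) held them on the sense strand, against 9 of all 39429 probes on the array (0.0228%). On the antisense strand the letters were in 0 of the 51 member probes and in 4 probes of the array. The 30-base windows that hold the letters are given 5′ to 3′ with the stem-loop in capitals, because they show how far each probe runs past it. They are parts of the deposited 60-base probes, whose mm9 positions are given after each name.
Hist1h2ab, chr13:23843392-23843451, plus strand: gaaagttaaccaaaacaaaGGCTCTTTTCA
Hist1h3a, chr13:23853756-23853815, minus strand: aattaaccaaaGGCTCTTTTCAGAGCCaca
Hist1h3g, chr13:23627719-23627778, plus strand: cactttaaaGGCTCTTCTTAGAGCCaccca
Hist1h3i, chr13:21874784-21874843, minus strand: ataacaaaaGGCTCTTTTCAGAGCCccctc
Hist2h2bb, chr3:96074056-96074115, plus strand: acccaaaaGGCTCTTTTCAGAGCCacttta
Hist2h2aa1, chr3:96049949-96050008, plus strand: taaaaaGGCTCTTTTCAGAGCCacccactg
Hist1h2ae, chr13:23662489-23662548, minus strand: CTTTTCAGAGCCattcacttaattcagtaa
The first 5 of these probes end at or shortly after the stem-loop, with 0, 3, 5, 5 and 6 further bases in the order given. The Hist2h2aa1 probe runs on for 38 bases and the Hist1h2ae probe for 48, so most of their letters lie downstream of it. A probe without the letters may lie on either side, and the other 44 probes could not be placed this way.

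The histone genes moved in both directions. Of the 47 genes, 46 passed the filter on dim probes, and Hist3h2bb, read at 6.52 and 6.42 in Pak1-/- and 6.50 and 6.63 in Pak1+/+, was dim on all 4 arrays and was not tested. Among the 46 tested, 13 were higher and 14 lower in Pak1-/-, and 19 did not pass. The count of lower genes depended on single samples, with 9 without Pak1-/- replicate 1 or Pak1+/+ replicate 2 and 21 without Pak1+/+ replicate 1. The called share was 58.7%, beside 51.9% of all probes tested (23.3% higher and 28.6% lower), so being called does not set the histone genes apart from the array. At least 2-fold changes were called for 8 genes upward and 4 downward, beside 6.94% and 5.6% of all probes (12.5% in all). With the dim genes at their bounds, 7 in place of 8 rose at least 2-fold, since Hist1h1d was bounded below that. In 44 of the 46 genes both arrays of one group lay above both of the other, beside 78.2% of the probes with 4 values. The median log2 fold change was -0.24 over the 46 genes and -0.05 over all probes, within a range from -1.81 to 3.60 among the genes. With normexp values scaled to the 75th percentile the 2 medians were -0.50 and -0.07, and with processed intensities scaled that way -0.53 and -0.08; the counts were then 13 higher and 19 lower, and 13 higher and 18 lower. Signal was well above background on all 4 arrays for 40 genes, of which 8 were higher and 13 lower. A further 4 genes, Hist1h2bg, Hist1h1d, Hist1h2ae and Hist1h2ac, passed the filter only through the Pak1-/- arrays, so they could be called in that direction alone.

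**Figure D1:**
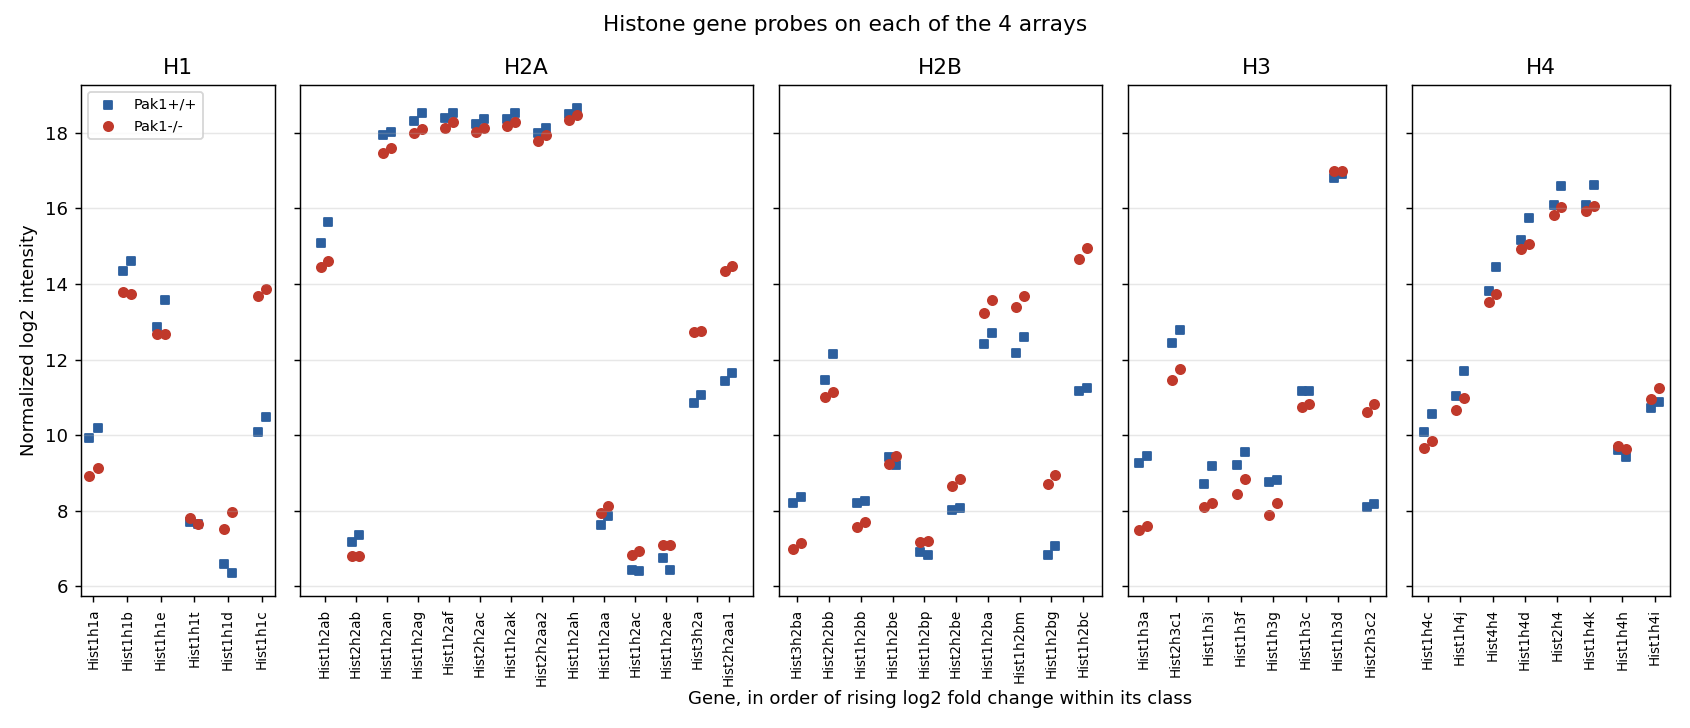
Normalized log2 intensity (vertical axis) of the 46 histone genes tested, in 5 panels by histone class, with the genes of each class in order of rising log2 fold change along the horizontal axis. Squares are the 2 Pak1+/+ arrays and circles the 2 Pak1-/- arrays; the 6 H3 genes at the left of their panel lie lower in Pak1-/-, while Hist1h1c, Hist2h2aa1, Hist1h2bc and Hist2h3c2 end their panels far above Pak1+/+.

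The linker histone genes split. Hist1h1c, which encodes one of the somatic H1 subtypes, read 13.69 and 13.86 in Pak1-/- and 10.08 and 10.48 in Pak1+/+. Both Pak1-/- arrays were far above both Pak1+/+ arrays, a difference of 3.49 (SE 0.16, adjusted p = 0.000254 in limma), or 11.2-fold. Hist1h1d, another somatic subtype, was well above background in Pak1-/- (7.51 and 7.97) and not in Pak1+/+ (6.59 and 6.34), which makes it at least 1.83-fold higher in Pak1-/- (adjusted p = 0.00502). Hist1h1a and Hist1h1b, also somatic subtypes, were lower. Hist1h1a read 8.91 and 9.12 against 9.92 and 10.19, a difference of -1.04 (SE 0.13, adjusted p = 0.00325). Hist1h1b read 13.80 and 13.72 against 14.34 and 14.61, a difference of -0.71 (SE 0.11, adjusted p = 0.00708). Hist1h1e had values of 12.69 and 12.67 against 12.87 and 13.58 and did not pass (-0.55, 95% interval -1.18 to 0.09, adjusted p = 0.121); its Pak1+/+ arrays lay further apart than its group means, and without Pak1+/+ replicate 1 it was called lower (-0.90, adjusted p = 0.00642). Hist1h1t, the testis-specific H1, read 7.81 and 7.65 against 7.69 and 7.65, and the groups overlapped.

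Among the 14 H2A genes, 4 were higher, 4 lower and 6 did not pass, near the 23.3% and 28.6% of all probes. With detection required on all 4 arrays, 2 of 11 were higher and 3 lower. Hist2h2aa1 rose most, with 14.34 and 14.49 in Pak1-/- against 11.44 and 11.65 in Pak1+/+, a difference of 2.87 (SE 0.11, adjusted p = 0.000168 in limma) or 7.30-fold. Hist3h2a, the H2A gene of the small cluster on chromosome 11 (mm9 58768954 to 58769013), read 12.74 and 12.75 against 10.86 and 11.06, higher by 1.78 (SE 0.094, adjusted p = 0.000368). In both genes the arrays of a group were close together and the groups far apart. Hist1h2ae and Hist1h2ac were dim on both Pak1+/+ arrays. Hist1h2ae read 7.08 and 7.10 against 6.73 and 6.44, at least 1.15-fold higher (adjusted p = 0.0226). Hist1h2ac read 6.83 and 6.93 against 6.44 and 6.40, at least 1.01-fold higher (adjusted p = 0.00744), so the bound leaves almost no difference. Hist1h2ae lost its call without either Pak1-/- array and without Pak1+/+ replicate 2 (adjusted p = 0.0648 to 0.0962).

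The H2A genes called lower changed less. Hist1h2ab read 14.46 and 14.61 in Pak1-/- and 15.10 and 15.64 in Pak1+/+, a difference of -0.83 (SE 0.20, adjusted p = 0.0228 in limma); the call was lost without Pak1-/- replicate 1 (adjusted p = 0.119) or 2 (adjusted p = 0.0812). The values were -0.47 for Hist2h2ab (adjusted p = 0.0127), whose probe was dim on 1 Pak1-/- array, -0.46 for Hist1h2an (adjusted p = 0.0102) and -0.38 for Hist1h2ag (adjusted p = 0.0337). Without Pak1+/+ replicate 2 these 3 calls were lost (adjusted p = 0.0566, 0.0556 and 0.138). Those of Hist2h2ab and Hist1h2ag were also lost without Pak1-/- replicate 1 (0.0591 and 0.133) or 2 (0.0571 and 0.0782), and that of Hist1h2ag with the authors' table (0.0512) and without a filter (0.0587). Hist1h2ah, whose probe had the highest mean signal of the class, read 18.35 and 18.46 against 18.49 and 18.66 and did not pass (-0.17, 95% interval -0.41 to 0.08, adjusted p = 0.192).

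Several H2A probes lie in the end of the coding sequence and cannot separate the genes. The probes of Hist1h2af, Hist1h2ak, Hist1h2an and Hist2h2aa2 start at the same codon and run to the stop codon, and are shown because 50 of their 60 positions are identical. Capitals mark the 10 positions that vary, and any pair of them differs at 5 to 8.
Hist1h2af, chr13:23626113-23626172, plus strand: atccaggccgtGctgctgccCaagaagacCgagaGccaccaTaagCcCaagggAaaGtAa
Hist1h2ak, chr13:21845304-21845363, minus strand: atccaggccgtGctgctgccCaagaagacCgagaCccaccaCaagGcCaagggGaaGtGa
Hist1h2an, chr13:21878695-21878754, minus strand: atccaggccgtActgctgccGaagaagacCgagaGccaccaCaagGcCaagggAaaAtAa
Hist2h2aa2, chr3:96049837-96049896, plus strand: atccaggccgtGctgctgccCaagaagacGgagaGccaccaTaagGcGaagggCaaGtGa
Their log2 fold changes were -0.26 for Hist1h2af, -0.20 for Hist1h2ak, -0.46 for Hist1h2an and -0.20 for Hist2h2aa2, of which that of Hist1h2an passed the test. The Hist2h2aa2 probe and the Hist2h2aa1 probe lie on the same strand with 52 bases between them on mm9, yet the first read -0.20 (adjusted p = 0.149 in limma) and the second 2.87. The first, in the shared coding sequence, had 17.78 and 17.95 against 18.00 and 18.12, whereas the second runs past the stem-loop. The Hist2h2ac probe (-0.23) is placed over the first, at chr3:96049834-96049896. These gene names are counted apart here although their probes map to the same short stretch. Hist1h2ak had a second probe 273 bases away, which shared no run of 20 bases with another member and read -0.78 (adjusted p = 0.00962). With each array scaled to its 75th percentile in place of quantile normalization, 9 H2A genes were called lower in place of 4, and with the processed intensities scaled that way 8 were.

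Of the 10 H2B genes tested, 6 were higher, 2 lower and 2 did not pass, beside 23.3% and 28.6% of all probes, with a median of 0.50. One of the 6, Hist1h2bg, passed the filter only through the Pak1-/- arrays; with detection required on all 4 arrays, 4 of 8 were higher and 3 lower, with a median of 0.36. Hist1h2bc had the largest change of any histone gene with all 4 arrays in the fit. It read 14.66 and 14.95 in Pak1-/- against 11.17 and 11.24 in Pak1+/+, a difference of 3.60 (SE 0.12, adjusted p = 0.000125 in limma) or 12.1-fold, at mm9 chr13:23784254-23784313. Without Pak1+/+ replicate 2, Hist1h1c changed more (3.69 against 3.63). Hist1h2bg was well above background in Pak1-/- (8.71 and 8.94) and dim in Pak1+/+ (6.84 and 7.07), at least 3.65-fold higher (adjusted p = 0.000706). Hist1h2bm read 13.40 and 13.69 against 12.18 and 12.60, higher by 1.15 (SE 0.18, adjusted p = 0.00659), but its probe lists 4 RefSeq transcripts. Hist1h2ba, the testis H2B, read 13.24 and 13.57 against 12.41 and 12.70, higher by 0.85 (SE 0.16, adjusted p = 0.0115). Hist2h2be read 8.64 and 8.83 against 8.03 and 8.06, higher by 0.69 (SE 0.091, adjusted p = 0.00396). Hist1h2bp was higher by 0.32 (7.17 and 7.19 against 6.91 and 6.82, adjusted p = 0.0208) and lost its call when any 1 sample was left out (adjusted p = 0.0607 to 0.118).

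Both H2B decreases were clear of the spread. Hist3h2ba, on chromosome 11 (mm9 58762964 to 58763023), read 6.98 and 7.15 against 8.21 and 8.37, a difference of -1.22 (SE 0.10, adjusted p = 0.00115 in limma). With other processing or 1 sample left out, its difference ranged from -2.03 to -1.14. Hist1h2bb read 7.57 and 7.71 against 8.19 and 8.26, a difference of -0.58 (SE 0.083, adjusted p = 0.00492). Hist2h2bb had 11.01 and 11.15 against 11.46 and 12.13 and did not pass (-0.71, adjusted p = 0.0606), although it was called without Pak1+/+ replicate 1 (-1.05, adjusted p = 0.00577). Hist1h2be overlapped between the groups, with 9.24 and 9.43 against 9.41 and 9.19.

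Of the 8 H3 genes, 6 were lower and 1 higher, beside 28.6% and 23.3% of all probes, with a median of -0.74; without Pak1-/- replicate 1 or Pak1+/+ replicate 2, 4 of 8 were lower. Hist1h3a fell most of all histone genes. It read 7.49 and 7.59 in Pak1-/- against 9.26 and 9.44 in Pak1+/+, a difference of -1.81 (SE 0.094, adjusted p = 0.000354 in limma), or 3.52-fold lower. With other processing or 1 sample left out, its difference ranged from -2.42 to -1.72. Hist2h3c1 read 11.46 and 11.76 against 12.44 and 12.78, a difference of -1.001 (SE 0.16, adjusted p = 0.0073). Further H3 genes of the chromosome 13 cluster were lower to a similar degree. Hist1h3i read 8.09 and 8.21 against 8.71 and 9.18 (-0.80, SE 0.17, adjusted p = 0.0171). Hist1h3f read 8.44 and 8.82 against 9.22 and 9.54 (-0.75, SE 0.18, adjusted p = 0.0234). Hist1h3g read 7.90 and 8.21 against 8.76 and 8.82 (-0.74, SE 0.12, adjusted p = 0.0082). The call of Hist1h3i was lost without either Pak1-/- array (adjusted p = 0.0685 and 0.0961), and that of Hist1h3f without Pak1-/- replicate 1 (0.0904) or Pak1+/+ replicate 2 (0.0738). Hist1h3c fell by 0.38 (adjusted p = 0.0128) and lost its call without either Pak1+/+ array (0.0634 and 0.0647).

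A single H3 gene rose. Hist2h3c2 (mm9 chr3:96042034-96042093) read 10.62 and 10.82 in Pak1-/- against 8.10 and 8.16 in Pak1+/+, higher by 2.59 (SE 0.096, adjusted p = 0.000164 in limma) or 6.02-fold. Its probe ends in a run of 6 or more A, as does 1 other, that of Hist1h4i, which did not pass (0.29, adjusted p = 0.125). Hist2h3c1, on the same chromosome 8979 bases away on mm9, went the opposite way. Hist1h3d, whose probe had the highest mean signal of the class and lists 4 RefSeq transcripts, read 16.98 and 16.98 against 16.82 and 16.90 and did not pass (0.12, 95% interval -0.07 to 0.31, adjusted p = 0.224); its sign turned negative when arrays were scaled to the 75th percentile (-0.13 and -0.15).

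Of the 8 H4 genes, 0 passed the threshold in limma. At an unadjusted p under 0.05 there was 1, Hist1h4c (9.66 and 9.83 against 10.07 and 10.55, -0.57, 95% interval -1.04 to -0.09, adjusted p = 0.0539). In all, 6 had negative changes, from -0.57 to -0.35, and Hist1h4h (0.17) and Hist1h4i (0.29) had positive ones. The spread came from the Pak1+/+ arrays, where replicate 2 exceeded replicate 1 by 0.48 to 0.66 in the 6 genes. Hist1h4k, for example, read 15.94 and 16.08 in Pak1-/- against 16.09 and 16.62 in Pak1+/+ (-0.35, 95% interval -0.85 to 0.16, adjusted p = 0.194). Without Pak1+/+ replicate 1 all 6 were called lower, and with the replicate number as a term 5 were; without any 1 of the other samples 0 were. Leaving out Pak1+/+ replicate 1 keeps only the higher of the Pak1+/+ arrays, which is then assumed to vary like the Pak1-/- pair. Hist2h4 and Hist1h4k each had a second probe, at -0.48 (adjusted p = 0.0183) and -0.45 (adjusted p = 0.136), and the second probe of Hist1h4i read 0.18 (adjusted p = 0.25).

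**Figure D2:**
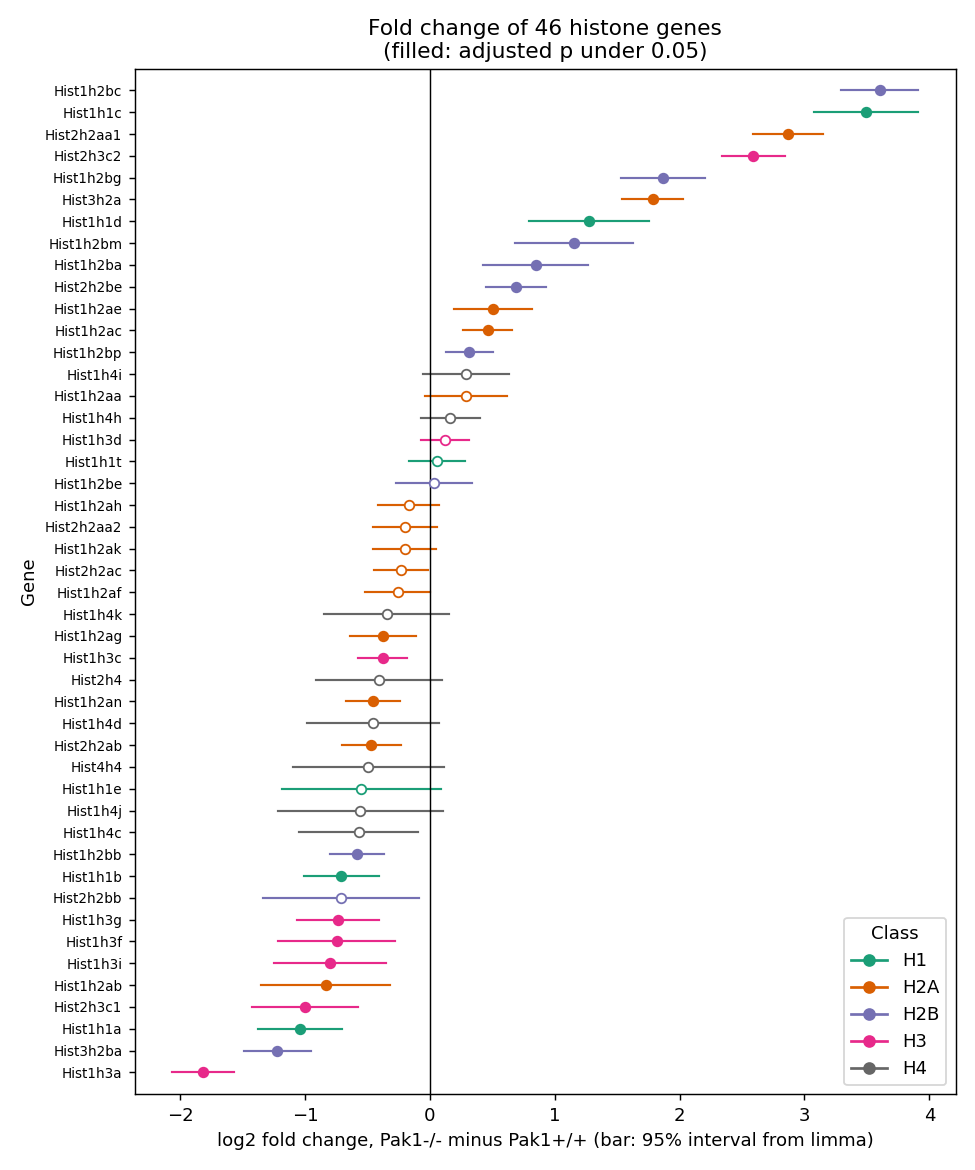
Log2 fold change, Pak1-/- minus Pak1+/+, of the 46 histone genes tested (horizontal axis), with genes in order on the vertical axis, colours for the 5 classes and bars for the 95% interval from limma, which is not adjusted for the number of probes. Filled points passed an adjusted p of 0.05; the 4 largest increases, from 2.59 to 3.60, belong to 4 different classes, and all H4 points are open.

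The position of the probe relative to the stem-loop separated the 7 probes that hold it. The 5 probes that end within 6 bases of it all read lower in Pak1-/-, from -1.81 (Hist1h3a) to -0.71 (Hist2h2bb), and 4 of the 5 passed the test, the exception being Hist2h2bb. The 2 probes that extend beyond it, those of Hist2h2aa1 and Hist1h2ae, were both higher. Hist1h2ae passed the filter only through the Pak1-/- arrays and could be called in that direction alone, so the upper part of the pattern is 1 gene, Hist2h2aa1. With 7 genes the pattern was noticed in the data and was not tested. The Hist1h2ab and Hist1h2ae probes carry 11 and 12 of the 16 letters, and the Hist1h3g probe has 2 mismatches to them.

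**Figure D3:**
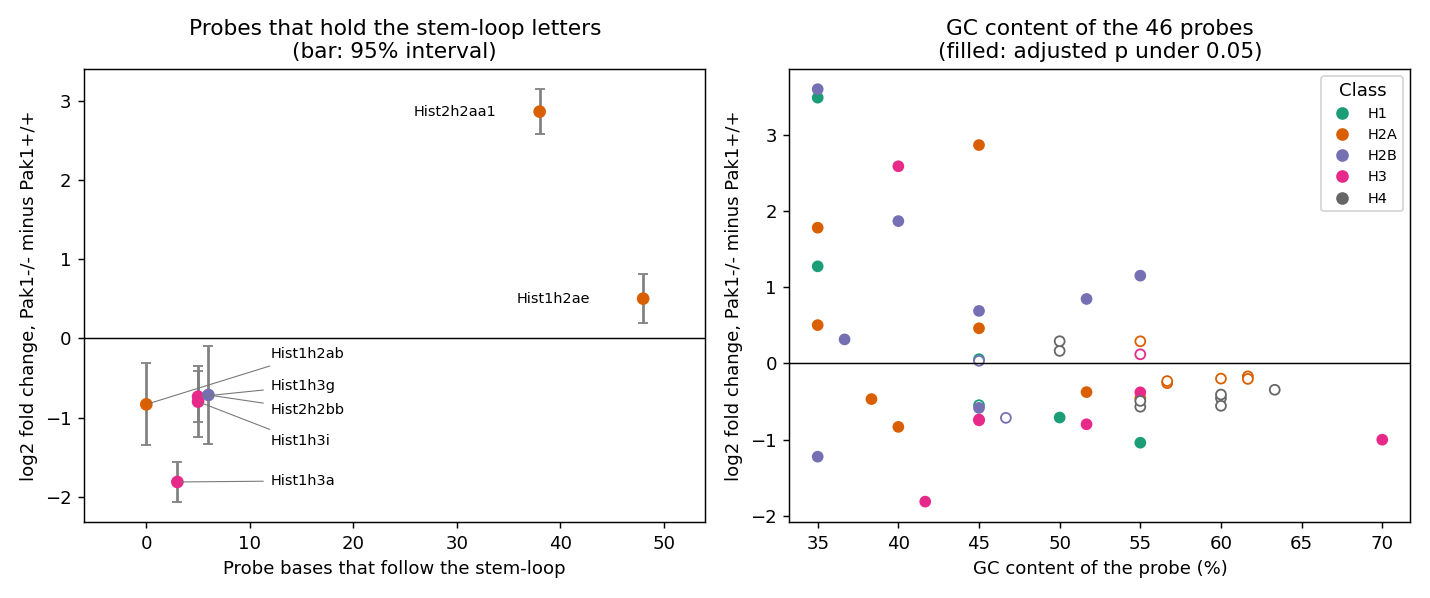
Left, log2 fold change with its 95% interval from limma against the number of probe bases that follow the stem-loop letters, for the 7 probes that hold them; the 5 probes with 0 to 6 bases lie between -1.81 and -0.71 and the 2 probes with 38 and 48 bases lie above 0. Right, log2 fold change against the GC content of the probe in percent for the 46 histone genes tested, coloured by class, with filled points past an adjusted p of 0.05; the 13 higher genes have a median GC content of 40% and the 19 that did not pass one of 55%.

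Few member probes held the usual poly(A) signals, with AATAAA below its share of all probes and ATTAAA near it. The letters AATAAA stood in the sense strand of 2 of 51 member probes (3.92%), against 12.6% of all probes on the array, and ATTAAA in 2 of 51 (3.92%), against 4.56%; on the antisense strand each was in 1 member probe, against 4.03% and 2.65% of all. One of the AATAAA probes, that of Hist1h2ag, holds it across the end of the coding sequence. The other, that of Hist3h2ba, is shown with an ATTAAA probe, with the letters in capitals.
Hist3h2ba, chr11:58762964-58763023, plus strand: gttcataatggtattAATAAAtttggttca
Hist1h2be, chr13:23675610-23675669, minus strand: gtactgttcattATTAAAgcattcctgatt
Hist3h2ba was lower (-1.22) and Hist1h2be did not pass (0.04), so the letters did not go with an increase in these 2 genes. The other ATTAAA probe, that of Hist1h4i, is not printed and did not pass (0.29). Their presence is a description of the probe and not evidence of use.

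Many probes cannot separate their gene from others. Of the 12 genes whose probe lists several RefSeq transcripts, 1 was higher, 2 were lower and 9 did not pass; of the 34 tested with a single transcript, 12 were higher, 12 lower and 10 did not pass, beside 23.3% and 28.6% of all probes. The median change was -0.30 in the first set and -0.10 in the second. The 4 genes that passed the filter only through the Pak1-/- arrays, and so could only be called higher, are all in the second set; without them it held 8 higher, 12 lower and 10 not passed of 30, with a median of -0.38, so the difference in the medians rests on them. A run of at least 20 bases was shared with the probe of another histone gene by 15 probes, of which 14 read below 0 and 1, that of Hist2h2aa1, above it. In Hist1h3a, Hist1h3i, Hist2h2bb and Hist2h2aa1 the run, of 21 or 22 bases, is the stem-loop with a few bases beside it. It is shared across classes there and does not mark near-identical genes. Probes outside the member list shared runs of at least 20 bases as well. That of the H2A variant gene H2afj did so with several of the coding H2A probes. That of RP23-480B19.10 did so with the probes of Hist1h2ag, Hist1h2ah and Hist1h2an. The LOC674678 probe shared a run with the Hist1h4k probe, and the Galns probe with the Hist1h4i probe.

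GC content varied among the probes. Those of the 13 higher genes had a median of 40%, those of the 14 lower genes 47.5% and those of the 19 others 55%, against 41.7% over all probes of the array. Below 50% GC, 11 of 22 genes were higher, 7 lower and 4 did not pass, beside 24.2% and 29.4% of the array's probes of that GC content. The same 4 genes dim in Pak1+/+ lie here, and without them 7 of 18 were higher, 7 lower and 4 did not pass. At 50% or more, 2 of 24 were higher, 7 lower and 15 did not pass, beside 19.4% and 25.2%. Of the 25 genes with a probe of 50% GC or more, 12 had a probe that lists several transcripts and 11 one that shares a run of at least 20 bases; the separate parts of these features in the result were not tested.

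The Hist1 cluster on chromosome 13 (probes from mm9 21814057 to 24026527) held 34 genes. Of these, 9 were higher, 11 lower and 14 did not pass, beside 23.3% and 28.6% of all probes. The 9 include Hist1h2bg, Hist1h1d, Hist1h2ae and Hist1h2ac, which passed the filter only through the Pak1-/- arrays and could be called higher only. The cluster falls into a block of 11 genes (21814057 to 22134451), with 2 higher and 4 lower, and a block of 23 (23622937 to 24026527), with 7 higher and 7 lower. The genes that could be called higher only all lie in the block of 23. Neighbours could differ: the Hist1h1c probe, up 11.2-fold, lay 5250 bases from that of Hist1h3c and 6561 from that of Hist1h2bb, both lower. The Hist2 cluster on chromosome 3 (96024171 to 96074115) held 9 genes, with 3 higher and 2 lower. In the Hist3 cluster on chromosome 11, Hist3h2a rose and Hist3h2ba fell, with 5930 bases between their probes. The single Hist4 gene, Hist4h4 on chromosome 6 (136752681 to 136752740), did not pass (-0.49, adjusted p = 0.137 in limma).

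The histone genes also shared a difference within the groups. Replicate 2 read above replicate 1 for 40 of 46 genes in Pak1-/- and for 39 of 46 in Pak1+/+, beside 50.4% and 48.8% of all probes. The median difference was 0.15 in Pak1-/- and 0.18 in Pak1+/+, against 0.0018 and -0.0031 over all probes. In Pak1+/+ it reached 0.70 (Hist1h1e), as large as many of the differences between genotypes. Replicate numbers have no stated order or pairing, and what the samples numbered 2 share was not tested.

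**Figure D4:**
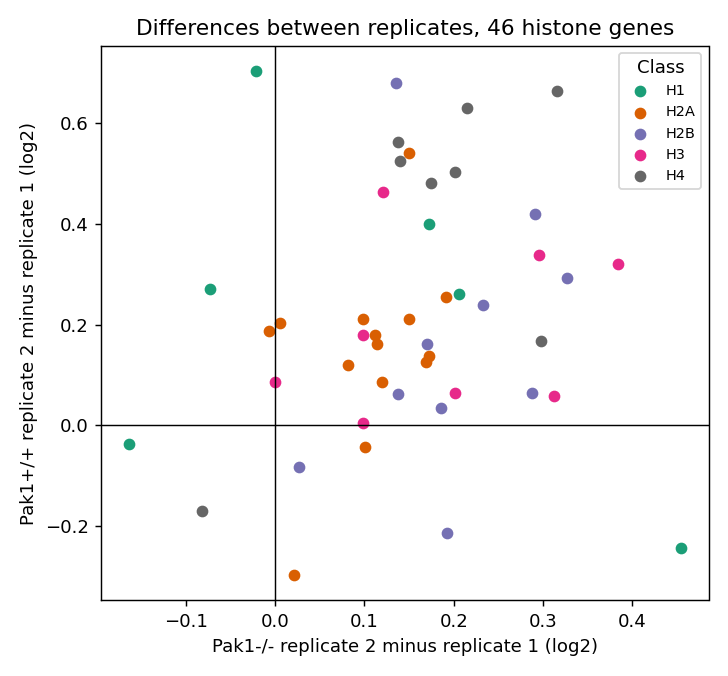
Replicate 2 minus replicate 1 in Pak1-/- (horizontal axis) and in Pak1+/+ (vertical axis), in log2 units, for the 46 histone genes tested, 1 point per gene and coloured by class. Most points lie above 0 on both axes, and 6 H4 genes lie between 0.48 and 0.66 on the vertical axis.

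Promoters of the genes were read from the RefSeq table of GRCm38.p6, as 250 bases before to 50 after each start, and 41 of the 47 genes had one. On either strand, the CCAAT box was in 36 of 41 (87.8%) against 41.1% of 27025 genes, and the TATA letters TATAAA in 25 of 41 (61.0%) against 15.7%. The octamer ATTTGCAT, the binding letters of the POU factor Pou2f1 (Oct-1), was in 13 of 41 (31.7%) against 1.97%. All 13 were H2B (6 of 8 with a promoter) or H2A genes (7 of 14), and 0 of the H1, H3 and H4 genes held it. By call, it was in 6 of the 11 higher genes with a promoter, 2 of the 12 lower and 5 of the 18 that did not pass. A link between the octamer and direction was not tested. Of the 6 H2B octamers, 3 are shown, because genes of both directions carry them, in 30-base windows on GRCm38.p6 with the octamer in capitals.
Hist1h2bg, chr13:23571330-23571359, plus strand: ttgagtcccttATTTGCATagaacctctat
Hist1h2bm, chr13:21722008-21722037, plus strand: ctctcgtctctATTTGCATaacagcgtgta
Hist1h2bb, chr13:23746633-23746662, plus strand: ttgagtctcttATTTGCATaaagcctttga
Those of Hist1h2ba (higher) and of Hist1h2be and Hist2h2bb (not passed) are not printed. Hist1h2bg and Hist1h2bm were higher and Hist1h2bb was lower (Hist1h2bg, dim in Pak1+/+, could be called higher only), although the windows of Hist1h2bg and Hist1h2bb are alike around the octamer. A match describes these letters only. Pou2f1 itself read 11.99 and 11.80 against 12.11 and 12.02 and did not pass (-0.17, adjusted p = 0.206 in limma).

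Genes that make, process and deliver histones were read from lists written from general knowledge. Among 22 genes of histone mRNA synthesis and 3′ end processing, 6 were higher, 9 lower and 7 did not pass, beside 23.3% and 28.6% of all probes, with a median of -0.20. Slbp, the stem-loop binding protein, read 11.33 and 11.43 in Pak1-/- against 12.71 and 12.45 in Pak1+/+, a difference of -1.20 (SE 0.11, adjusted p = 0.00149 in limma). Nelfe, a subunit of the negative elongation factor, fell by 1.10 (13.48 and 13.64 against 14.70 and 14.62, adjusted p = 0.00105). Casp8ap2 (FLASH), which recruits the cleavage machinery to the U7 particle, read 11.41 and 11.41 against 12.48 and 12.45 (-1.05, adjusted p = 0.00058). The largest increase was that of Zcchc6, a uridylyltransferase that tails RNA for decay, with 14.26 and 14.15 against 13.12 and 13.18 (1.05, adjusted p = 0.000873). Of the 2 U7-specific ring proteins, Lsm11 was lower (-0.77, adjusted p = 0.00335) and Lsm10 higher (0.64, adjusted p = 0.00386). Npat, the activator that links cyclin E-Cdk2 to histone transcription, overlapped between the groups (7.16 and 6.61 against 6.97 and 6.78).

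Of 22 genes of histone chaperones and their partners, 14 were lower, 3 higher and 5 did not pass, beside 28.6% lower and 23.3% higher of all probes, and the median was -0.38. Hat1, which acetylates new H4, read 12.31 and 12.38 against 13.58 and 13.45 (-1.16, SE 0.082, adjusted p = 0.000749 in limma). Nap1l1, a chaperone of H2A and H2B, fell by 0.92 (adjusted p = 0.00123), and Supt16, a subunit of the FACT complex, fell by 0.92 (adjusted p = 0.00538). Chaf1a, of the replication-coupled assembly factor CAF-1, fell by 0.88 (adjusted p = 0.00172). Daxx, a chaperone of the replacement histone H3.3, was higher, with 14.98 and 14.87 against 13.86 and 13.86 (1.07, adjusted p = 0.000787).

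Of 11 replacement variant genes, which are expressed outside S phase as well and have polyadenylated mRNAs, 2 were higher, 2 lower and 7 did not pass, beside the same 23.3% and 28.6%, with a median of -0.14. H1fx, a linker variant, fell by 1.53 (8.62 and 9.01 against 10.48 and 10.21, SE 0.17, adjusted p = 0.00238 in limma) and Cenpa, the centromeric H3, fell by 1.02 (adjusted p = 0.00783). The genes of H3.3 were higher by small amounts, H3f3b by 0.37 (adjusted p = 0.0118) and H3f3a by 0.24 (adjusted p = 0.0403); neither call held when arrays were scaled to the 75th percentile.

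The S phase list moved as a block. Of the 23 S phase genes tested, 22 were lower, 1 did not pass and 0 were higher even at an unadjusted p under 0.05, with a median of -1.11, beside 28.6% of all probes lower. Rrm2, the small subunit of ribonucleotide reductase, read 14.99 and 15.02 against 16.95 and 16.73 (-1.84, SE 0.10, adjusted p = 0.000401 in limma). Gins1, of the replicative helicase, fell by 1.37 (adjusted p = 0.000547), the primase gene Prim1 fell by 1.33 (adjusted p = 0.000354) and the origin licensing gene Cdc6 fell by 1.28 (adjusted p = 0.000373). Ccne1, cyclin E1, did not pass (-0.04, adjusted p = 0.661), and Ccne2 was dim on all 4 arrays. In these bulk samples, fewer cells in S phase and less RNA per cell cannot be told apart. The histone genes spread from -1.81 to 3.60 while the S phase genes spread from -1.84 to -0.04, and the part of the S phase difference in the histone decreases was not tested.

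**Figure D5:**
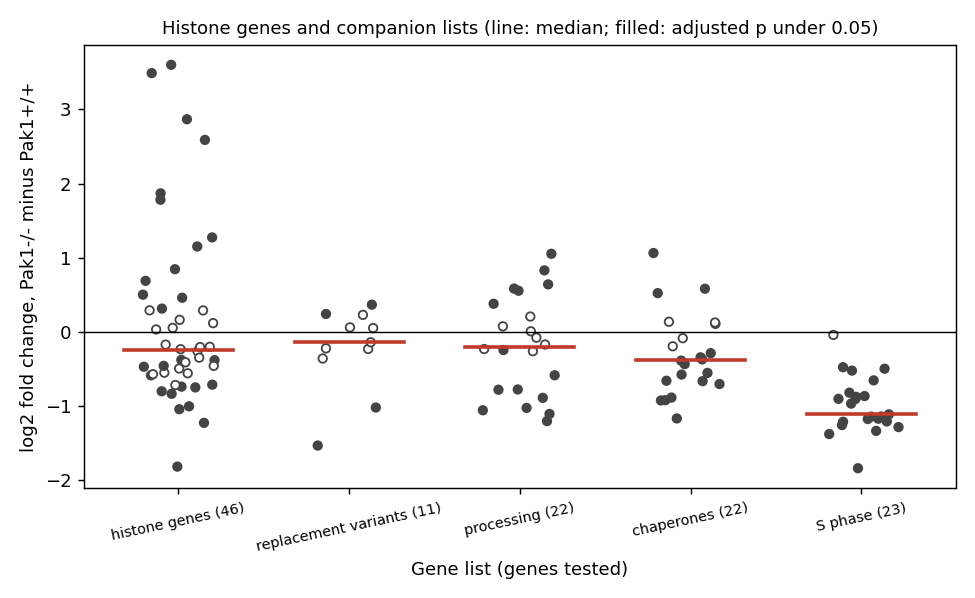
Log2 fold change, Pak1-/- minus Pak1+/+ (vertical axis), of each tested gene in the histone set and in 4 lists (horizontal axis), with a line at the median and filled points past an adjusted p of 0.05; horizontal scatter within a list has no meaning. The S phase genes have a median of -1.11 and all lie below 0, whereas the histone genes reach 3.60.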

How the data were processed

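Total RNA of 4 samples was labelled with Cy3 from a linear amplification, and hybridised to 1 mouse array each. The deposited scanner output gives each spot's intensity on a linear scale, read with Feature Extraction 9.5.3.1, and probe positions on mm9; the submitters' processing notes name Agilent Feature Extraction 9.5. The authors also deposited log2 values of the same arrays, normexp corrected and quantile normalized, which served as an alternative.

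Background was removed by the normexp method of limma 3.58.1 under R 4.3.3 (offset 50). After control spots were dropped, 43020 spots were log2 transformed and quantile normalized, spots flagged as outliers were set aside, and the spots of a probe were averaged. The filter kept a probe that was well above background on 2 or more of the 4 arrays (27229 of 39429, 69.1%). Groups were compared with lmFit and eBayes, two-sided, genotype only, with Benjamini-Hochberg adjustment over the probes kept and a threshold of 0.05. The offset understates changes of dim probes. A probe dim on both arrays of a group has a bound there, the higher of its own value and the lowest value well above background on each array. The scripts were tested on simulated data. The number of arrays limits the precision.

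Among genes past the threshold, the text names the 10 largest increases and decreases and the 4 largest changes of each list. It also names genes dim in 1 group only and the gene of highest mean signal in each class. Other genes were named after their values were seen. Members and lists were chosen with earlier results of these data known. Of the 47 gene names, 46 matched a RefSeq accession. Alternatives changed the background correction, normalization, filter, probe summary, threshold and samples. No member was saturated. Human samples of the study were not analysed here.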

Additional observations from a re-analysis of the deposited data

How the results depend on the processing

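Of the 13 histone genes called higher, 8 kept the call in all 13 alternatives that were run per gene; Hist1h1d, Hist1h2ac and Hist1h2bg kept it in the 12 that tested them, and Hist1h2ae and Hist1h2bp lost it in some. Of the 14 called lower, 7 kept the call in all 13; no called gene changed sign. The count of higher genes was 8 where probes had to be well above background on all 4 arrays, which removes genes dim in 1 group, and 11 to 12 with 1 sample left out. The count of lower genes was 9 to 21 with 1 sample left out (9 without Pak1-/- replicate 1 or Pak1+/+ replicate 2, 10 without Pak1-/- replicate 2, 21 without Pak1+/+ replicate 1) and 7 at an adjusted p under 0.01, and it was 18 and 19 with processed and normexp values scaled to the 75th percentile; the cause of the shifts between samples was not tested. The median of -0.24 became -0.53 with processed intensities and -0.50 with normexp values scaled to the 75th percentile, -0.36 with detection on all 4 arrays, -0.10 with probes that list 1 transcript (chosen after seeing the data), and -0.31 to -0.15 with 1 sample left out. Over the whole array, 8878 probes were called at 0.01 in place of 14132, and 10307 to 12164 with 1 sample left out.

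Replacement variants called higher were 0 with either 75th percentile scaling and with the mean over probes, 1 with a normexp offset of 0, without a filter and with the replicate block, and 0 to 1 with 1 sample left out; those called lower were 5 with normexp values scaled to the 75th percentile and 2 to 4 with 1 sample left out (4 without Pak1-/- replicate 2). Of genes that did not pass, Hist1h1t ranged from -0.025 (without Pak1-/- replicate 1) to 0.14 and Hist1h2be from -0.072 (without Pak1+/+ replicate 2; -0.061 without Pak1-/- replicate 2) to 0.14 with 1 sample left out, and Hist1h3d -0.15 and -0.13 with processed and normexp values scaled to the 75th percentile; the cause was not tested.

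The labels number the samples alike in both groups but state no pairing. Differences between replicates correlated at r = -0.028 across 27215 probes of the 2 groups and at 0.15 across the 46 histone genes (across genes, which are not independent). With the replicate number as a block, 13 histone genes were higher and 20 lower with a median of -0.24, and 13211 probes were called in all.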
